A study of Homo sapiens with 8 samples.

Results

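Mitochondrial ribosomal protein genes, those whose symbol begins with MRPL or MRPS followed by a number, were described in Hep3B cells after loss of SOX4 and after knockdown of STAT6. The rule found 77 genes, 48 MRPL and 29 MRPS, each listed in both tables of the study, of 16040 genes in the table of Hep3B and SOX4 knockout libraries and 14955 genes in the table of siRNA libraries. The rule used only the symbol and no measured value. Hep3B is a human hepatocellular carcinoma (HCC) cell line, and bulk mRNA was sequenced from 8 libraries, 2 in each of 4 groups. These were untreated Hep3B, Hep3B with a CRISPR/Cas9 knockout of the transcription factor SOX4 (SOX4-/-), Hep3B transfected with a control (scramble) siRNA, and Hep3B transfected with an siRNA against the transcription factor STAT6. All groups came from this single line, the siRNA groups carried intact SOX4, and the knockout was compared with untransfected cells. The study's methods state that SOX4-/- cells were cultured with puromycin, which they do not state for Hep3B. In the SOX4 comparison an effect of this drug cannot be told apart from that of the knockout. The study describes a pair of knockout lines, and its RNA sequencing methods name SOX4-/- #1 and #2 for these data. The labels only number the SOX4-/- libraries 1 and 2 and do not name a line. Nothing in the labels says that libraries of a group came from separate cultures. The p-values therefore measure only the spread between these libraries, which may be technical and in SOX4-/- may include a difference between lines.

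Mitochondria carry their own ribosome, the mitoribosome, which translates the few respiratory chain subunits that the mitochondrial genome encodes. Its ribosomal RNAs are transcribed in the organelle, whereas all of its proteins are encoded in the nucleus, made in the cytosol and imported. The large subunit forms peptide bonds and the small subunit decodes the mRNA. Part of the proteins descend from bacterial ribosomal proteins and the others are specific to mitochondria. In structural nomenclature the prefix u marks a protein with homologs in all ribosomes, b one shared with bacteria and m one specific to mitochondria.

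Of the 77 genes, 46 encode proteins with a bacterial homolog and 30 encode mitochondria-specific proteins. The symbol and the structure part in 3 cases. MRPS30 (mL65) and MRPS18A (mL66) sit in the large subunit, and MRPS36 is a subunit of the 2-oxoglutarate dehydrogenase complex and not of the ribosome. By structure there were therefore 50 large and 26 small subunit genes. Another 6 subunit genes with other symbols (AURKAIP1, CHCHD1, DAP3, GADD45GIP1, ICT1 and PTCD3) fell outside the rule. The 77 genes lie on 21 chromosomes and were represented by 152 RefSeq transcripts in the table of SOX4 knockout libraries and 148 in the table of siRNA libraries. Their transcripts had a GC content of 35.0% (MRPL50) to 71.9% (MRPL41) with a median of 48.9%. In the GENCODE release 29 annotation, 26 of the genes overlap a protein-coding gene on the other strand and 34 have a named pseudogene. Whether the counting used strand is not given in the sources used here, so reads of overlapping or near-identical genes may be shared.

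The libraries held 16266282 to 25353113 expected counts, of which 62502 to 117166 fell on the 77 genes, and the lowest count of any of them in a library was 33. Levels are CPM, the gene's expected count divided by the library's total and multiplied to a common total, after trimmed mean of M-values (TMM) scaling within each table, so levels set across the 2 tables are only approximate. SOX4 itself was at 798.7 and 265.9 CPM in untreated Hep3B, against 297.9 and 301.6 CPM where the label says knockout (log2 fold change -0.83 ± 0.54 SE, adjusted p = 0.372, edgeR quasi-likelihood test with Benjamini-Hochberg adjustment), so its level did not check that label. STAT6 had 32.0 and 13.2 CPM in Hep3B, against 2.76 and 2.20 in SOX4-/- cells (log2 fold change -3.18, adjusted p = 0.0275 by the same test). In the siRNA libraries it had 42.5 and 31.4 CPM with scramble and 9.92 and 5.98 with STAT6 siRNA (log2 fold change -2.22 ± 0.72 SE, adjusted p = 1.00 by the same test). With the library number as a block in that edgeR fit it was at -2.25 (adjusted p = 4.11e-20). All 10 hepatocyte markers were at 1 CPM or more in every library, 3 of 4 endothelial markers were at 0 in every library, and the leukocyte marker CD3E and the fibroblast markers COL3A1 and DCN were at 0 in every library. The summed level of the hepatocyte markers was 15878.5 and 12508.8 CPM in Hep3B, against 55173.3 and 30459.6 in SOX4-/- cells. The summed level of the 5 leukocyte markers was 45.4 and 8.06 CPM in Hep3B and 121.6 and 334.7 in SOX4-/- cells, and that of the 6 fibroblast markers 4.22 and 7.78 against 105.4 and 74.5. The part of these shifts in the SOX4 comparison was not tested. Hep3B library 2 stood apart. All 10 heat-shock genes looked at, which were chosen after values were seen, were higher in it than in the other Hep3B library and both SOX4-/- libraries, by 2.36 to 23.7 times over Hep3B library 1 (HSPA1A 33.3 against 788.2 CPM, DNAJB1 170.6 against 1323.1). Counts of calls and the values that moved most are therefore also given without this library.

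Together the genes took 0.338% and 0.444% of all counts in Hep3B and 0.357% and 0.399% in SOX4-/- cells. In the siRNA libraries the share was 0.647% and 0.486% with scramble and 0.633% and 0.509% with STAT6 siRNA. The ranges of control and treated libraries overlapped in both tables, and with siRNA library 1 was above library 2 in both groups. In bulk samples, fewer cells expressing a gene and less RNA per cell cannot be told apart. Per kilobase of transcript, which allows genes to be compared, the highest levels in Hep3B were those of MRPS24 (uS3m, 117.4 CPM per kb as a mean of both libraries), MRPL18 (uL18m, 100.2), MRPS18B (mS40, 86.6) and MRPS34 (mS34, 78.0). MRPS24 was also the highest in the other 3 conditions, with 134.0 in SOX4-/-, 238.4 with scramble and 313.6 CPM per kb with STAT6 siRNA. The lowest were MRPL42 (mL42, 3.44 in Hep3B), MRPS33 (5.25), MRPL35 (5.50) and MRPS31 (6.11 CPM per kb). The level of MRPL42 rests on an annotated transcript length of 15582 bases, the longest of the set. As a description, the order of the 77 levels per kb had a Spearman correlation of 0.85 to 0.98 between conditions, over genes that share libraries and length annotation. MRPL18 stood second in Hep3B and was 33rd, 38th and 41st in the SOX4-/-, scramble and STAT6 siRNA groups. Its Hep3B mean joins 40.8 CPM per kb in library 1 and 159.6 in library 2, so that place rests on Hep3B library 2. Most of its level in that library came from noncoding transcripts, as given below.

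The comparison of SOX4-/- with Hep3B asks which of these genes depend on SOX4. None of the 77 was called, against 5.89% of all 14415 genes tested (849 genes; adjusted p below 0.05, edgeR quasi-likelihood test with Benjamini-Hochberg adjustment). At an unadjusted p below 0.05 there were 9 of the 77, MRPL13, MRPL15, MRPL16, MRPL17, MRPL23, MRPL24, MRPL41, MRPL53 and MRPS30, beside 26.0% of all genes tested. That count was 9 without Hep3B library 2, 11 without Hep3B library 1, 4 without SOX4-/- library 1, 0 without SOX4-/- library 2 and 3 with all 8 libraries in one fit. The log2 fold changes ran from -1.25 (MRPL18) to 1.44 (MRPL24) with a median of -0.04, and 35 were above 0 and 42 below. The median over all genes tested was 0.01. A log2 fold change beyond 1 in either direction was seen in 8 of the 77 (10.4%) and in 30.4% of all genes. Both SOX4-/- libraries lay above both Hep3B libraries for 16 genes (20.8%), where all genes gave 30.6%, and below both for 21 genes (27.3%), where all genes gave 27.4%. The DESeq2 Wald test, an alternative, called 4 of them at an adjusted p below 0.05, MRPL16 (0.0469) and MRPL17 (0.0314) as higher and MRPL15 (0.0430) and MRPS30 (0.0450) as lower. The share of all genes is not given for this test or the other alternative fits, so their counts have no background beside them. Without Hep3B library 2 the quasi-likelihood test called 2, MRPL16 (log2 fold change 1.78, adjusted p = 0.0278) and MRPL24 (2.06, adjusted p = 0.0221). Without Hep3B library 1 it called 2 others, MRPL15 (-1.28, adjusted p = 0.0496) and MRPL18 (-1.99, adjusted p = 0.00901).

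**Figure D1:**
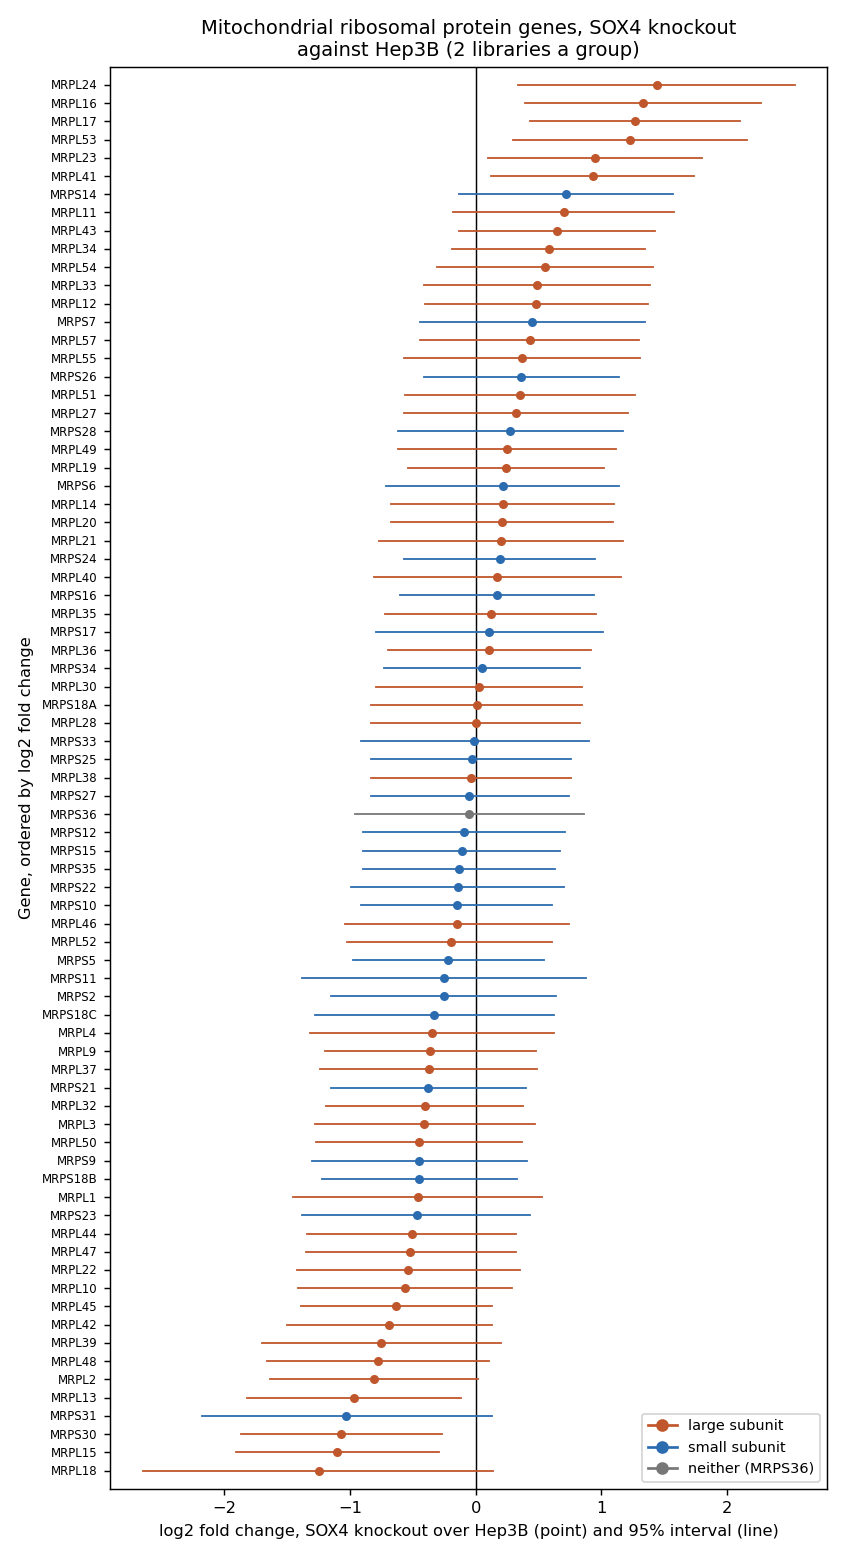
Fitted log2 fold change of each of the 77 genes (points, vertical axis ordered by value) with its 95% interval (lines) for SOX4 knockout over Hep3B, 2 libraries a group. The 6 genes whose whole interval lies above 0 and the 3 whose interval lies below 0 all belong to the large subunit by structure, and MRPL18 has the widest interval. These are the 9 genes with an unadjusted p below 0.05 (edgeR quasi-likelihood test), beside 26.0% of all genes tested.

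The 6 genes named for the highest values among those whose libraries did not overlap all encode large subunit proteins. MRPL24 (uL24m), whose bacterial homolog starts the assembly of the large subunit, had 7.21 and 15.1 CPM in Hep3B, against 24.9 and 35.7 CPM in SOX4-/- cells. The SOX4-/- libraries were thus both above Hep3B, and as a ratio the Hep3B libraries differed from each other by more than the nearest libraries of the groups did (log2 fold change 1.44 ± 0.47 SE, 95% interval 0.34 to 2.54, adjusted p = 0.111, edgeR quasi-likelihood test with Benjamini-Hochberg adjustment, as for all values of this kind that follow). MRPL16 (uL16m), whose bacterial homolog lies beside the tRNA binding site of the large subunit, had 11.3 and 19.7 CPM in Hep3B, against 37.6 and 40.2 in SOX4-/- cells (1.33 ± 0.40 SE, interval 0.39 to 2.27, adjusted p = 0.0934). MRPL17 (bL17m) had the lowest p-value of the 77. Its levels were 18.5 and 18.8 CPM in Hep3B, against 39.0 and 50.8 in SOX4-/- cells, with little spread among the controls (1.27 ± 0.36 SE, interval 0.43 to 2.10, adjusted p = 0.0796). MRPL53 (mL53), a mitochondria-specific protein, had 12.4 and 9.39 CPM in Hep3B, against 21.8 and 29.2 in SOX4-/- cells (log2 fold change 1.23 ± 0.40 SE, adjusted p = 0.108). MRPL23 (uL23m), whose bacterial homolog lies at the exit of the peptide tunnel, had 32.5 and 22.3 CPM against 51.2 and 54.9 (0.95 ± 0.37 SE, adjusted p = 0.153). MRPL41 (mL41), also described as a partner of Bcl-2, had 25.9 and 32.6 CPM against 54.4 and 57.0 (0.93 ± 0.35 SE, adjusted p = 0.145). MRPL41 and MRPL23 have the highest GC content of these 6, and with GC and length offsets in the fit they were at 0.23 (adjusted p = 0.702) and 0.40 (adjusted p = 0.480). None of these passed the threshold after adjustment.

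Promoters were read to ask what these genes share beside their symbol, and 68 of the 77 had one in the RefSeq table (GRCh38.p14), from 250 bases before to 50 after the start. Nuclear genes for mitochondrial proteins are known targets of NRF1, of ETS factors such as GABP (NRF2) and of YY1. The promoters of MRPL17 and MRPL16 are shown for the genes with the lowest p-values on the higher side, those of MRPS30 and MRPL48 for genes on the lower side, and that of MRPS12 (uS12m), a protein of the decoding centre, as one of 8 promoters that held both the ETS and the YY1 letters. Capitals mark exact matches, on either strand, to the NRF1 letters GCGCATGCG, their shorter core GCATGCG, the ETS letters CCGGAAG and the YY1 letters AAGATGGC.
MRPL17 (chr11:6683291-6683590, minus strand): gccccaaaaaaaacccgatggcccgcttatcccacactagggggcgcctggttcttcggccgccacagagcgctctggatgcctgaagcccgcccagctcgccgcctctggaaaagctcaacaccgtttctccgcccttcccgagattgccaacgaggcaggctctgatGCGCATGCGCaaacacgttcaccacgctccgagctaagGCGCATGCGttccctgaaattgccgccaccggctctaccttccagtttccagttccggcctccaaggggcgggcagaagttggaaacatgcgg
MRPL16 (chr11:59810729-59811028, minus strand): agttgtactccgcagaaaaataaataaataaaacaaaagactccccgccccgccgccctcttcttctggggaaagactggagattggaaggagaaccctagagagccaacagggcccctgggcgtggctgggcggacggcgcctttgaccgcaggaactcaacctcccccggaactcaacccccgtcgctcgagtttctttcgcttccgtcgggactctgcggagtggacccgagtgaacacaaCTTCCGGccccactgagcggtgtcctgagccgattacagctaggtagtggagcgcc
MRPS30 (chr5:44808697-44808996, plus strand): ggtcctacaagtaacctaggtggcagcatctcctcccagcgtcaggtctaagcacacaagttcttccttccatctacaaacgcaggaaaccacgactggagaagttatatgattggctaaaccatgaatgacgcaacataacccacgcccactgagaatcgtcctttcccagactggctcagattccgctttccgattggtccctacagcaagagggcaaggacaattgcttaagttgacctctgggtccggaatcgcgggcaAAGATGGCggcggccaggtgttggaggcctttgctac
MRPL48 (chr11:73787624-73787923, plus strand): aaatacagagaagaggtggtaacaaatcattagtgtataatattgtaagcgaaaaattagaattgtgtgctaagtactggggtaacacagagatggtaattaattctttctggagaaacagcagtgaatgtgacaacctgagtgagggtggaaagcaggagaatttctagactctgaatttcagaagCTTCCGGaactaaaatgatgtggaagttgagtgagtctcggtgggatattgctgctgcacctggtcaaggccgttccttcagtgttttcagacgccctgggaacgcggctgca
MRPS12 (chr19:38930694-38930993, plus strand): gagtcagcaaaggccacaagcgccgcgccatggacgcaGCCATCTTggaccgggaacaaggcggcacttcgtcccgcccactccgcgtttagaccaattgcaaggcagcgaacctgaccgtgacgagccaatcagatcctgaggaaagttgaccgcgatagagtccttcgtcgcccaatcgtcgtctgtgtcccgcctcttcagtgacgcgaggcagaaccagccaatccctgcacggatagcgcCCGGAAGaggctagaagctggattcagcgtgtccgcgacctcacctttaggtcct

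The ETS letters were in 28 of the 68 promoters (41.2%), beside 18.4% of the 10691 promoters of tested genes and 10.7% of all 27305 promoters. The YY1 letters were in 20 (29.4%), beside 5.18% of promoters of tested genes and 3.03% of all. Full NRF1 letters were in 3 of the 68 (4.41%, beside 3.55% of promoters of tested genes and 2.10% of all) and the shorter core, which the full letters contain, in 7 (10.3%, beside 6.27% and 4.13%). MRPL17 held the full NRF1 letters at a pair of places, the first of them read on both strands. Other motifs were no more frequent than in tested genes. The GC box GGGCGG was in 41 promoters (60.3%, beside 68.9% of promoters of tested genes and 44.6% of all), the CCAAT box CCAAT in 20 (29.4%, beside 36.4% and 35.7%), the E-box CACGTG in 6 (8.82%, beside 10.1% and 7.43%) and the TATA box TATAAA in 2 (2.94%, beside 5.72% and 12%). ETS letters were in 16 of 41 MRPL and 12 of 27 MRPS promoters, and YY1 letters in 12 of 41 and 8 of 27.

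The motifs were then set beside the SOX4 comparison as counts, with no test. Of the 16 genes with both SOX4-/- libraries above Hep3B, 15 had a promoter, of which 6 held the ETS letters and 1 the YY1 letters. Of the 21 genes with both libraries below, 17 had a promoter, of which 5 held the ETS letters and 9 the YY1 letters. The remaining 40 genes had 36 promoters, of which 17 held the ETS letters and 10 the YY1 letters. The median log2 fold change was -0.15 for the 20 genes with the YY1 letters and 0.04 for the 48 without, and it was 0.00 for the 28 genes with the ETS letters and -0.12 for the 40 without. In 22 of the 68 (32.4%) another RefSeq gene started on the opposite strand within 1000 bases upstream, beside 23.8% of tested genes. One such pair joins a gene of each subunit, MRPL46 and MRPS11, whose starts lie 320 bases apart. MRPL46 had 29.3 and 46.5 CPM in Hep3B, against 30.6 and 37.8 in SOX4-/- cells, and MRPS11 had 23.8 and 60.6 against 30.5 and 40.6. Both were thus highest in Hep3B library 2, with the SOX4-/- libraries inside the range of the controls. MRPS12 shares its start region with SARS2, the mitochondrial seryl-tRNA synthetase, at 181 bases.

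On the lower side, 5 of the 6 genes named encode large subunit proteins by structure. MRPL15 (uL15m), a homolog of a bacterial protein of late large subunit assembly, had 37.8 and 44.7 CPM in Hep3B, against 19.6 and 18.9 in SOX4-/- cells (log2 fold change -1.10 ± 0.35 SE, 95% interval -1.91 to -0.29, adjusted p = 0.103, edgeR quasi-likelihood test with Benjamini-Hochberg adjustment). MRPS30 (mL65), the large subunit protein with a small subunit symbol, had 51.8 and 61.0 CPM against 25.8 and 27.8 (-1.07 ± 0.34 SE, interval -1.87 to -0.27, adjusted p = 0.105). In both genes the libraries within a group lay close together and the groups were well apart. MRPL13 (uL13m) had 43.9 and 61.1 CPM against 24.6 and 29.1 (-0.97 ± 0.36 SE, adjusted p = 0.147). MRPL2 (uL2m), a homolog of the bacterial protein beside the peptidyl transferase centre, had 46.3 and 59.5 CPM against 26.5 and 33.8 (-0.81 ± 0.36 SE, adjusted p = 0.202). MRPL48 (mL48), part of the central protuberance of the large subunit, had 19.8 and 20.9 CPM against 11.9 and 11.9 (-0.78 ± 0.38 SE, adjusted p = 0.242). The small subunit gene MRPS31 (mS31) had 10.4 and 7.44 CPM against 4.96 and 3.79 (-1.03 ± 0.50 SE, adjusted p = 0.236), with the lowest levels of these 6. Again none passed the threshold after adjustment. Without Hep3B library 2 the 6 were at -1.26 (MRPS31) to -0.62 (MRPL2) on the log2 scale. Within library numbers, MRPL15 was at -0.94 and -1.24 and MRPS30 at -1.0 and -1.13 on the log2 scale. Same-numbered libraries of the SOX4 comparison did not deviate together (correlation -0.0849), so these ratios are a description and not paired replicates.

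**Figure D2:**
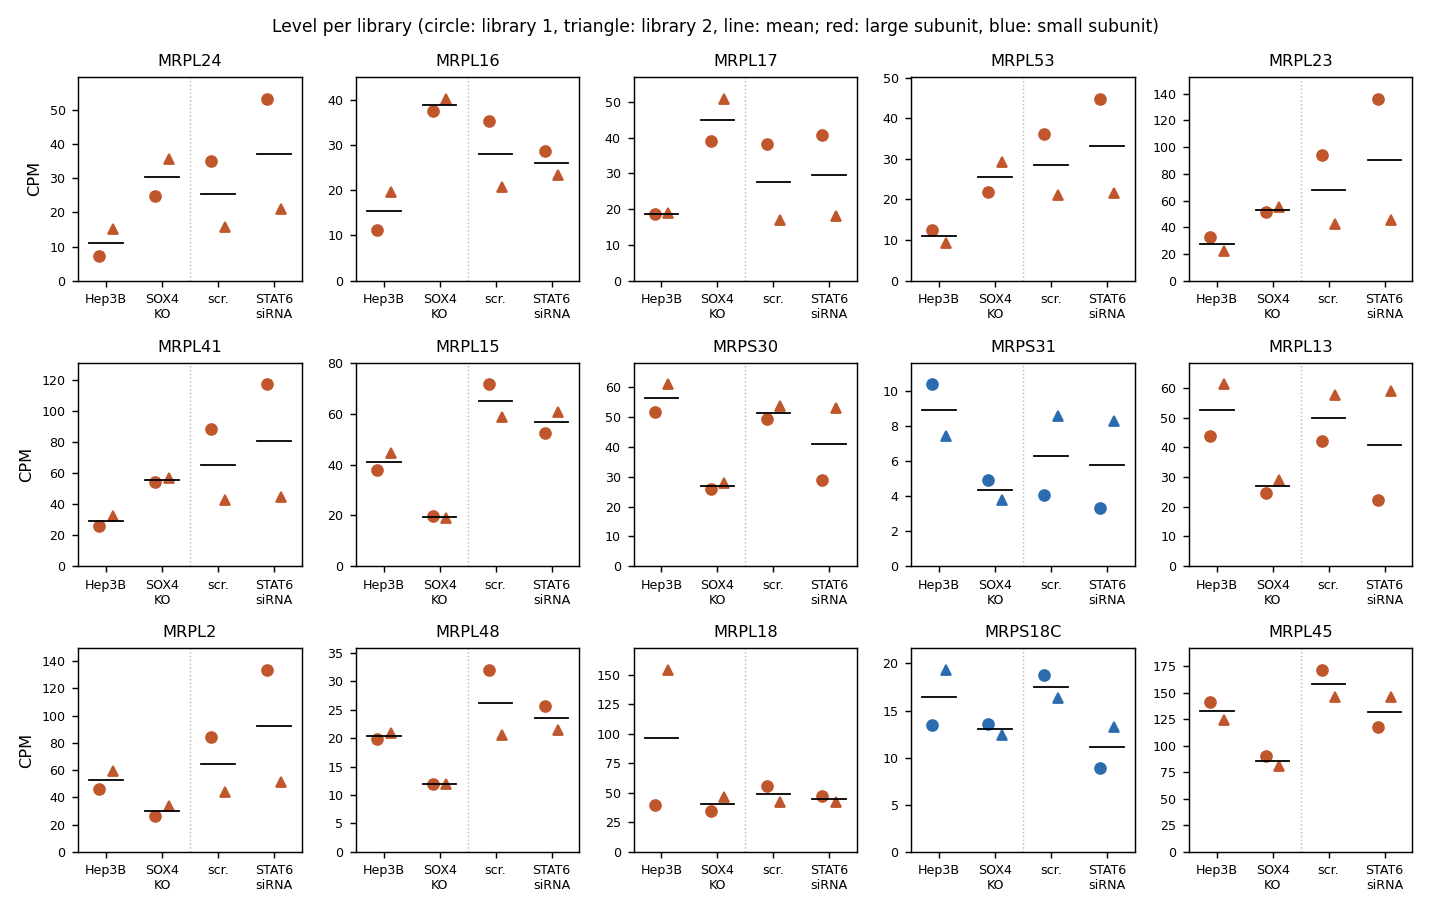
Levels in CPM (vertical axes, each from 0) of 15 genes in the 8 libraries, by condition. Circles are library 1, triangles library 2 and lines the mean; the dotted line parts the 2 tables. SOX4 knockout and Hep3B points do not overlap in the first 12 panels, and in the siRNA groups library 1 and library 2 of a condition are often further apart than the conditions.

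MRPL18 (uL18m), whose bacterial homolog binds the 5S ribosomal RNA, had the lowest log2 fold change of the 77, -1.25 ± 0.60 SE (interval -2.65 to 0.14, adjusted p = 0.232, edgeR quasi-likelihood test with Benjamini-Hochberg adjustment). Its levels were 39.4 and 154.1 CPM in Hep3B, against 34.5 and 46.6 CPM in SOX4-/- cells. Only Hep3B library 2 was high, and without it the log2 fold change was 0.04 (adjusted p = 0.966). The difference between the Hep3B libraries lay in the transcripts that RefSeq lists as noncoding. The 2 coding transcripts together had 29.1 and 37.8 CPM in Hep3B, 23.3 and 37.3 in SOX4-/-, 43.2 and 33.4 with scramble and 35.4 and 33.7 CPM with STAT6 siRNA, so the Hep3B libraries were inside the range of the others. The 5 noncoding transcripts together had 10.3 CPM in Hep3B library 1, 116.3 in Hep3B library 2 and 8.45 to 13.0 in the other 6. Most of it was a single transcript that starts 579 bases upstream of the coding ones, with 7.73 CPM in Hep3B library 1 and 104.4 in Hep3B library 2, a ratio of 13.5. These transcripts share sequence with the coding ones and their counts are estimates. Hep3B library 2 is the library with the highest heat-shock genes (HSP90AA1 774.3 against 4917.0 CPM in Hep3B library 1), and the part of either in the other was not tested. TCP1, a chaperonin gene that starts 210 bases from MRPL18 on the opposite strand, had 218.7 and 450.4 CPM in Hep3B, against 134.9 and 183.0 in SOX4-/- cells. Per gene, the SOX4-/- value of MRPL18 therefore rests on 1 control library and on transcripts that are not listed as coding.

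**Figure D3:**
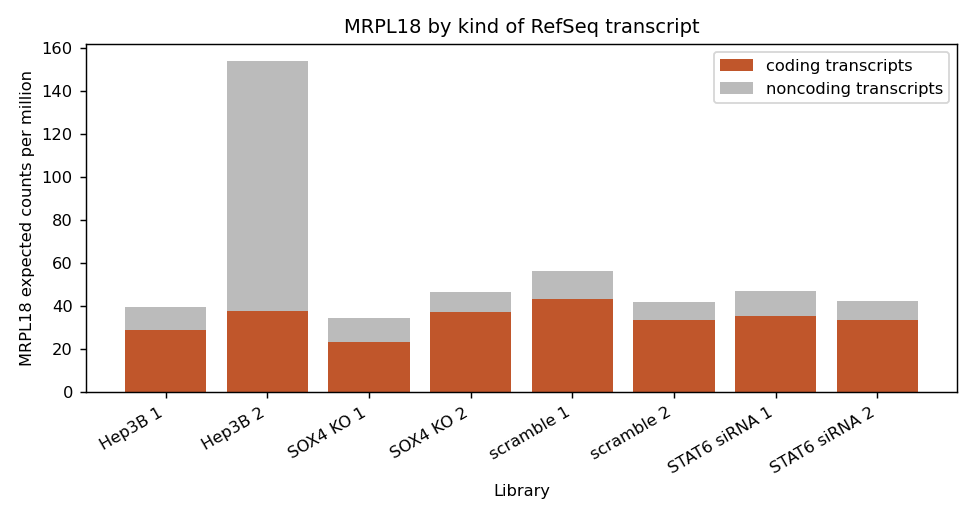
MRPL18 level in CPM (vertical axis) in each library, split into its coding and noncoding RefSeq transcripts (stacked bars, single libraries without error). The coding part is 23.3 to 43.2 in all 8 libraries and the noncoding part is 116.3 in Hep3B library 2 and at most 13.0 elsewhere.

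Other genes were named for their role, as were MRPL41 and MRPS30 above. The stalk of the large subunit, which recruits translation factors, holds MRPL10 (uL10m), MRPL11 (uL11m) and MRPL12 (bL12m), the last also known to bind the mitochondrial RNA polymerase. MRPL10 had 67.0 and 105.4 CPM in Hep3B, against 54.4 and 62.6 in SOX4-/- cells (log2 fold change -0.56 ± 0.37 SE). MRPL11 had 85.3 and 108.2 against 119.2 and 194.5 CPM (0.70 ± 0.38 SE), and MRPL12 had 51.6 and 68.9 against 65 and 103.6 CPM. The stalk genes thus lay on both sides, and MRPL12 overlapped between groups. At the membrane side, MRPL45 (mL45), which anchors the ribosome to the inner membrane, had 141.4 and 123.9 CPM against 90.5 and 81.0 (-0.63 ± 0.33 SE, adjusted p = 0.266), and MRPL44 (mL44), a protein with a ribonuclease III fold, had 59.1 and 85.3 against 46.5 and 55.1 (-0.51 ± 0.36 SE, adjusted p = 0.405, both by the edgeR quasi-likelihood test with Benjamini-Hochberg adjustment). Both genes were lower in both SOX4-/- libraries without passing the threshold. Without Hep3B library 2, MRPL10 was at -0.20 and MRPL44 at -0.22. MRPS12, in the decoding centre, had 54.0 and 67.5 CPM against 50.5 and 63.6. MRPS27, a pentatricopeptide repeat protein, had 76.0 and 70.4 against 61.9 and 80.0, and MRPS34 had 69.2 and 91.0 against 80.1 and 85.7 CPM. These 3 small subunit genes overlapped between groups. The 3 MRPS18 genes differed in level, with MRPS18B (mS40) at 144.7 and 120.7 CPM against 87.8 and 106.9, MRPS18A (mL66) at 48.9 and 57.6 against 43.2 and 64.0, and MRPS18C (bS18m) at 13.5 and 19.3 against 13.6 and 12.4. Of these, MRPS18B alone did not overlap. MRPS36, outside the ribosome, had 25.1 and 16.7 against 22.1 and 18.5 CPM. Over the 13 genes named by role or level whose fitted values are not given singly, log2 fold changes were -0.69 to 0.48 and the lowest adjusted p was 0.260.

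Large and small subunit genes were compared by their medians. By symbol, the median log2 fold change in SOX4-/- cells was 0.07 for the 48 large and -0.09 for the 29 small subunit genes. The large subunit genes were the more spread out, from -1.25 to 1.44 with quartiles of -0.47 and 0.44, beside -1.07 to 0.72 with quartiles of -0.25 and 0.11 for the small. Both SOX4-/- libraries lay above Hep3B for 13 large and 3 small subunit genes, and below for 14 and 7. As shares these were 27.1% of large and 10.3% of small above, where all genes gave 30.6%, and 29.2% and 24.1% below, where all genes gave 27.4%. Counted by structure, the medians were 0.02 and -0.10. An unadjusted p below 0.05 was seen in 9 of 50 large and 0 of 26 small subunit genes (edgeR quasi-likelihood test). Both are smaller shares than the 26.0% of all genes tested. The difference of the medians by symbol was 0.16, beside a spread of 0.12 (SD) of this difference between libraries, and it was 0.01 with GC content and length in the fit, 0.00 without Hep3B library 1 and 0.22 without Hep3B library 2. Genes with a bacterial homolog had a median of 0.07 and mitochondria-specific ones of -0.09. In every library, the median level per kb of the large subunit genes was 1.09 to 1.87 times that of the small subunit genes. The ratio was 1.28 and 1.27 in Hep3B, 1.13 and 1.46 in SOX4-/-, 1.63 and 1.09 with scramble and 1.87 and 1.23 with STAT6 siRNA, so the libraries differed from each other within the SOX4-/-, scramble and STAT6 siRNA groups. With means in place of medians the ratio was 0.985 and 1.20 in Hep3B and 1.06 to 1.23 in the other libraries.

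The comparison of STAT6 with scramble siRNA asks which of these genes depend on STAT6. None of the 77 was called (0.0% of 13554 genes tested were, edgeR quasi-likelihood test with Benjamini-Hochberg adjustment), and DESeq2 called none of them either. None had an unadjusted p below 0.05 in the edgeR fit, where only 14 of the 13554 genes did. That fit has no term for the library number, so differences between numbers count as error in it. The log2 fold changes were -0.66 to 0.54 with a median of 0.02, where that of all genes was -0.03, and 39 genes were above 0 and 38 below. Both STAT6 siRNA libraries lay above both scramble libraries for 0 of the 77, beside 2.74% of all genes, and below for 2 (2.60%), beside 5.26%. These were MRPS18C and MRPL45. MRPS18C (bS18m) had 18.8 and 16.3 CPM with scramble and 8.89 and 13.3 with STAT6 siRNA, a log2 fold change of -0.66 ± 0.72 SE (95% interval -2.20 to 0.88, adjusted p = 1.00 by the same test). MRPL45 had 171.3 and 145.8 CPM against 117.3 and 145.6, with its second STAT6 siRNA library level with the second scramble library (-0.27 ± 0.55 SE). The median standard error of the 77 was 0.64 on the log2 scale, beside 0.37 in the SOX4 comparison, so a change of 2-fold in a single gene was within the error here. The targeted STAT6, at -2.22, was not called in this fit either. With the library number as a block STAT6 was called (adjusted p = 4.11e-20, edgeR quasi-likelihood test with Benjamini-Hochberg adjustment). That block fit called 0 of the 77, with 8 at an unadjusted p below 0.05 and no share of all genes to set beside them.

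The siRNA libraries of the same number resembled each other more than those of the same condition, so the values were also taken within number, as a description. Within number 1, STAT6 siRNA over scramble had a median log2 ratio of -0.10 over the 77 genes, with 35 above 0 and a range of -1.10 (MRPL47) to 0.66 (MRPL2). Within number 2 the median was 0.09, with 64 above 0, and the range was -0.29 (MRPS18C) to 0.41 (MRPL24). Above 0 in both numbers were 34 genes and below 0 in both 12, so 59.7% had the same sign in both, beside 62.0% of all genes tested. MRPL24 was at 0.60 and 0.41, MRPL2 at 0.66 and 0.22, MRPS11 (uS11m) at 0.44 and 0.29 and MRPS26 (mS26) at 0.39 and 0.29. MRPS18C was at -1.07 and -0.29 and MRPL47 (uL29m) at -1.10 and -0.18. With the number as a block in the fit, MRPS18C had an unadjusted p of 0.00234 and an adjusted p of 0.177 (edgeR quasi-likelihood test with Benjamini-Hochberg adjustment). The labels do not say what a number shares.

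**Figure D4:**
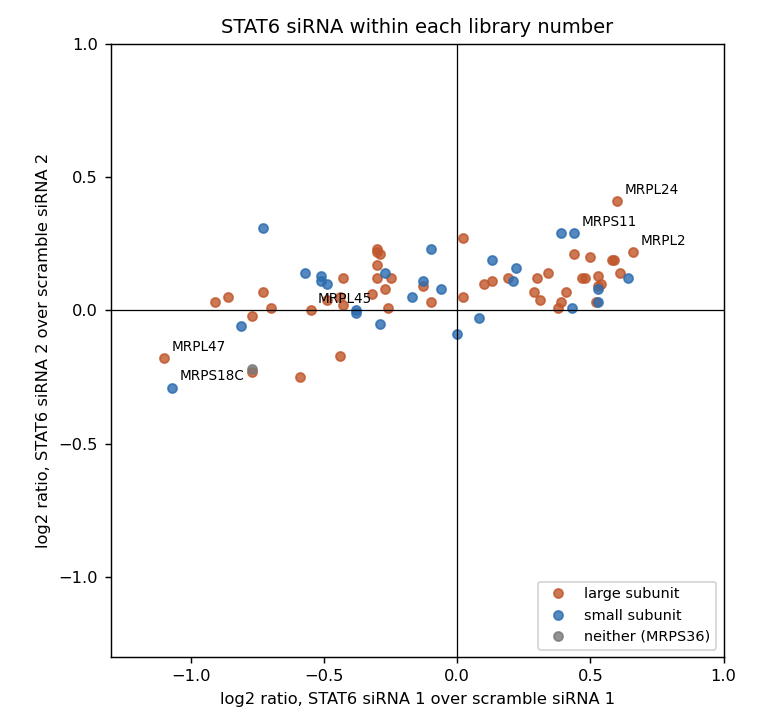
Log2 ratio of STAT6 siRNA over scramble siRNA for each of the 77 genes, library 1 over library 1 (horizontal axis) against library 2 over library 2 (vertical axis), without error since each point uses single libraries. Values run from -1.10 to 0.66 within number 1 and from -0.29 to 0.41 within number 2.

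Between libraries of the same condition, these genes moved with their GC content. In the scramble group, library 2 over library 1 had a median log2 ratio of -0.66 over the 77 genes (range -1.22 to 1.61), and in the STAT6 siRNA group it was -0.36 (range -1.62 to 2.12), with 40 of the 77 beyond 1 in either direction. The Spearman correlation of this ratio with GC content across the genes was -0.84 with scramble and -0.89 with STAT6 siRNA, beside -0.75 and -0.82 over all genes tested. At the AT-rich end, MRPL1 (uL1m) had 3.0 and 9.38 CPM with scramble and 2.42 and 10.9 with STAT6 siRNA, and MRPL50 (mL50) had 10.5 and 30.1 against 6.10 and 25.7. At the GC-rich end, MRPL41 had 88.2 and 42.6 CPM with scramble and 117.1 and 44.6 with STAT6 siRNA, and MRPL23 had 93.8 and 42.3 against 136.1 and 45.3. In each of these genes the libraries of a number were nearer to each other than those of a condition. In Hep3B the median of library 2 over library 1 was 0.28 (Spearman 0.14 with GC content), and in SOX4-/- it was 0.24 (0.47). The fitted log2 fold changes of the 77 also went with GC content, with a Spearman correlation of 0.40 in the SOX4 comparison and 0.80 in the STAT6 comparison. These correlations are across genes that share libraries and are given with no p, and the part of GC content in the changes was not tested. The fit with GC and length offsets takes out any change that follows GC content or length across genes, whatever its source. It is thus an adjustment and cannot decide this.

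**Figure D5:**
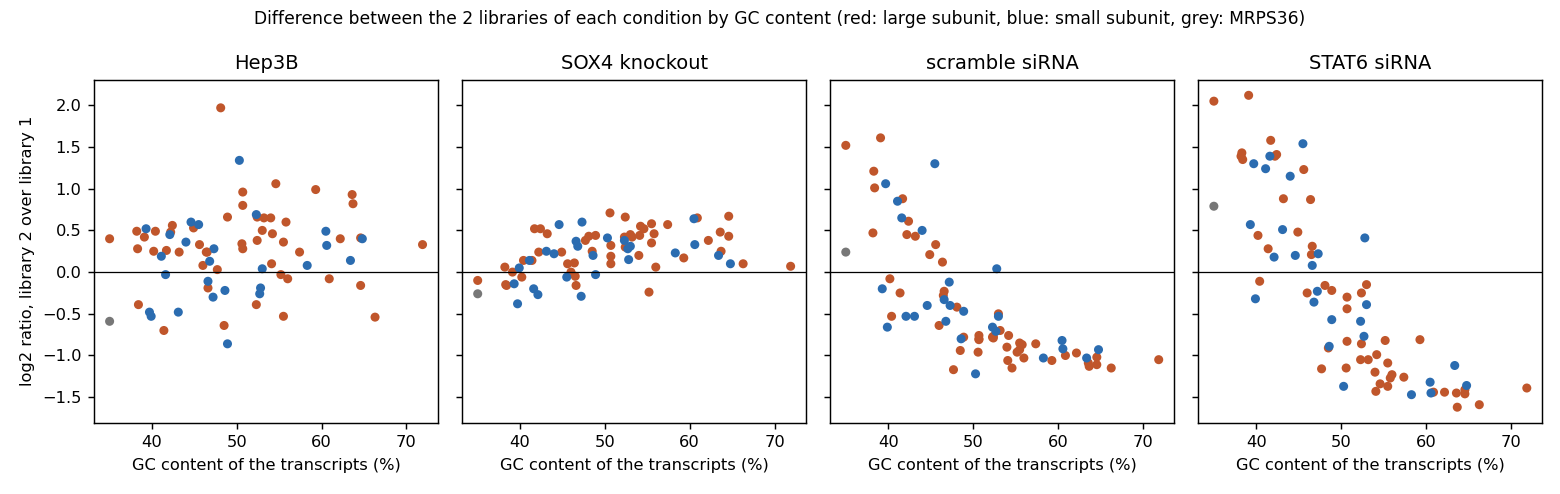
Log2 ratio of library 2 over library 1 (vertical axis) against transcript GC content in percent (horizontal axis) for the 77 genes in each condition. The ratio goes down with GC content in the scramble and STAT6 siRNA groups (Spearman -0.84 and -0.89) and not in Hep3B or SOX4 knockout (0.14 and 0.47).

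The effects of SOX4 knockout and of STAT6 siRNA were compared as a difference of differences over all 8 libraries, which share no control. None of the 77 was called, beside 0.0769% of the 14313 genes tested (11 genes), and none had an unadjusted p below 0.05. The lowest p-values were those of MRPL2, whose SOX4-/- effect minus its STAT6 siRNA effect was -1.47 ± 0.83 SE on the log2 scale (adjusted p = 0.883, edgeR quasi-likelihood test with Benjamini-Hochberg adjustment), and of MRPL16 with 1.32 ± 0.78 SE (adjusted p = 0.899).

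Other genes of the same pathway were counted from lists, likewise chosen with earlier results known. None of the 6 subunit genes with other symbols was called in either comparison, with median log2 fold changes of -0.31 in SOX4-/- cells and -0.11 with STAT6 siRNA. DAP3 (mS29), the GTP-binding protein of the small subunit, had 166.3 and 195.5 CPM in Hep3B, against 106.4 and 139.7 in SOX4-/- cells, and ICT1 (MRPL58, mL62), a peptidyl-tRNA hydrolase that rescues stalled ribosomes, had 24.7 and 34.2 against 19.3 and 23.5. Neither list of factors that act on the ribosome held a called gene in either comparison. The 25 assembly factors had medians of -0.12 and 0.11 and the 19 translation factors of -0.20 and -0.06. The 18 genes of mitochondrial transcription and DNA maintenance had 0 called and medians of -0.41 and -0.18. The 83 cytosolic ribosomal protein genes had 0 called and medians of -0.29 and 0.17, with 26 (31.3%) below and 1 (1.20%) above in both SOX4-/- libraries, beside 27.4% and 30.6% of all genes. Within library number 1 their median in the SOX4 comparison was -0.65 and within number 2 it was 0.14, and Hep3B library 2 over library 1 had a median of -0.70. Of the 81 nuclear respiratory chain subunit genes tested in the SOX4 comparison, 1 was called, where all genes gave 5.89%. This was NDUFV1, the NADH-binding subunit of complex I, which rose from 83.9 and 75.7 CPM to 202.5 and 249.3 (log2 fold change 1.5 ± 0.34 SE, adjusted p = 0.0475, edgeR quasi-likelihood test with Benjamini-Hochberg adjustment). That list had a median of 0.27, with 48 of 81 genes (59.3%) above Hep3B in both SOX4-/- libraries, beside 30.6% of all genes, and 0 of 82 called with STAT6 siRNA. In edgeR the call of NDUFV1 was lost with GC and length offsets (adjusted p = 0.0862 alone and 0.126 with the block) and with no filter (0.0530). It was also lost with 1 transcript a gene (0.0610) and with all 8 libraries in one fit (0.195). The call was kept with median-of-ratios factors (0.0484), upper-quartile factors (0.0415) and at least 10 counts in every library (0.0495). The DESeq2 Wald test also called it (0.00338). Its log2 fold change was 1.42 without Hep3B library 2 and 1.52 without Hep3B library 1. Without SOX4-/- libraries 1 and 2 in turn it was 1.65 and 1.31.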

How the data were processed

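Bulk mRNA of 8 Hep3B libraries was measured (Illumina stranded mRNA preparation). The authors deposited expected counts per RefSeq transcript in 2 tables, one for Hep3B and SOX4-/- and one for the siRNA libraries. The submitters' processing notes name STAR, Partek and hg38, with no versions, and only transcripts with a sum of at least 10 are listed. Transcripts were summed per gene and rounded, and each table was fitted separately in edgeR 4.0.16 under R 4.3.3 (filterByExpr, TMM, glmQLFit and glmQLFTest, no block, Benjamini-Hochberg over all genes tested). All 77 genes passed the filter. Standard errors are the log2 fold change over the root of F, and intervals cover 95%. Within-number ratios used log2 CPM with a prior count of 2. Length and GC content came from GENCODE transcripts paired with RefSeq. The design had assumed counts, and expected counts were rounded instead. The script was checked on simulated data. Members and lists were chosen with earlier results of these data known. Named genes were any called, the 6 highest and 6 lowest non-overlapping with a mean of at least 100 counts, 15 chosen by role, ICT1 beside them, the 4 highest and 4 lowest per kb in Hep3B, and called genes of the other lists. Promoter motifs were searched as exact letters on both strands. Alternatives were DESeq2 1.42.0, other scalings and filters, a replicate block, GC and length offsets (mgcv 1.9.3), 1 fit of all 8 libraries, 1 transcript a gene, subunits by structure, and leaving out each library.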

Additional observations from a re-analysis of the deposited data

How the results depend on the processing

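The SOX4 comparison called 0 of the 77 genes, 4 with DESeq2 and 0 to 2 when single libraries were left out (2 without Hep3B library 1 and 2 without Hep3B library 2), and 0 under the remaining alternatives. The median log2 fold change was -0.25 to 0.08 on leaving out single libraries, and large minus small subunit was 0.01 with GC and length offsets, -0.01 with the block and these offsets, and 0.00 to 0.22 on leaving out single libraries. MRPL18 turned from -1.25 to 0.04 without Hep3B library 2, and ranged from -1.99 to 0.04 over the single libraries left out. With only its highest transcript, a noncoding one, MRPL18 was at -2.70. SOX4 itself ran from -1.42 to 0.11, the latter without Hep3B library 1. The STAT6 comparison called 0 genes and 1 with the block and the offsets, MRPS11 (log2 fold change 0.42, adjusted p = 0.0291). Leaving out single siRNA libraries set unequal numbers against each other, and the median then ran from -0.27 to 0.42 and large minus small from -0.15 to 0.46. The difference between perturbations called 0 throughout. Replicate numbers were checked for pairing. Deviations of same-numbered libraries correlated at -0.0849 in the SOX4 table and 0.873 in the siRNA table, but with 2 pairs and no label saying what a number shares they were not taken as pairs. The replicate block alone called 0 of the 77 in both comparisons, with 8 at an unadjusted p below 0.05 in the STAT6 comparison. The share of all genes is not given for the alternative fits. Their counts, with these 8 genes and the call of MRPS11, thus have no background beside them. The causes were not tested. With 2 libraries a group, changes of under about 2-fold were within the error of a single gene in the main SOX4 fit. In the main STAT6 fit larger changes were within it too, with a median standard error of 0.64 beside 0.37 on the log2 scale.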
